A study of Mus musculus with 10 samples.

Results

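Cxcr5, Pdcd1, Bcl6, Il21, Icos, Sh2d1a and Sostdc1 are 7 genes known for their high expression in T follicular helper cells, the CD4+ T cells that help B cells in germinal centres. They were followed here across CD4+ T cell fractions of mouse spleen. The 7 genes were chosen by symbol, and all of their probe sets were taken: 12 of the 45141 probe sets on the arrays, and 7 of the 17097 genes that had a probe set with a single symbol. For each gene the probe set that was brightest on average over the 10 arrays is called its main probe set. No follicular helper cells were sorted in this study, so the genes are described as a named set and not as a cell type.

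All cells came from the spleens of DBA/1 mice, a strain used for collagen-induced arthritis. The groups were CD4+ cells of naive mice (2 arrays), CD4+ cells of injected mice (2 arrays), and the CD49b+ and CD25+ fractions of CD4+ cells of injected mice (3 arrays each). The injections were intraperitoneal, each of 500000 immature dendritic cells, on the days 7, 5 and 3 before harvest. The labels do not describe the handling of the naive mice separately. CD49b is an integrin alpha subunit and CD25 is the alpha chain of the interleukin-2 receptor. Cells of several mice were pooled for sorting. The labels do not state that replicates were separate pools, so the p-values rest on a spread between samples that may be only technical. The sources used here do not say whether the CD49b+ fraction excluded CD25+ cells. Because each array measured RNA of a cell mixture, fewer cells expressing a gene and less of its RNA per cell cannot be told apart.

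BCL6 is the transcriptional repressor that directs follicular helper differentiation, and it represses Prdm1, which encodes the opposing repressor BLIMP1. CXCR5 is the chemokine receptor that guides cells toward CXCL13 in B cell follicles, ICOS and PD-1 are surface receptors engaged by ligands on B cells and dendritic cells, and SAP, encoded by Sh2d1a, is the adaptor of the SLAM receptors that sustain contacts between T and B cells. Interleukin-21 is the cytokine these cells deliver to B cells. SOSTDC1 is a secreted antagonist of BMP and WNT signalling. Several of these genes are also expressed by other activated or regulatory T cells.

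RefSeq promoter sequence (build GRCm38.p6) was held here for 3 of the 7 genes, Pdcd1, Bcl6 and Il21, all of which were called lower after injection in CD4+ cells. Cxcr5, Icos, Sh2d1a and Sostdc1 are named only. The 250 bases before the start of each are shown 5′ to 3′ because transcription factors that act on these genes, among them STAT proteins, BCL6 itself and NFAT, read short DNA motifs. Capitals mark the matches found on either strand to TTCNNNGAA (the STAT motif), TTCCNNGAA (a motif of BCL6, every match of which also matches the STAT motif), TGGAAA (the core bound by NFAT), TGANTCA (AP-1) and CAGGTG (E proteins).
Bcl6, chr16:23981284-23981533, minus strand: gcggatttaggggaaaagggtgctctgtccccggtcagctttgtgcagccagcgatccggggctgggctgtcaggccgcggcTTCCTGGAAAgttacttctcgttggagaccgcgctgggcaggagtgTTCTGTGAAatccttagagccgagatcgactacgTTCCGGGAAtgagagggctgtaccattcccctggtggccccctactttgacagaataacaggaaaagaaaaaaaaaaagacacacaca
Il21, chr3:37232637-37232886, minus strand: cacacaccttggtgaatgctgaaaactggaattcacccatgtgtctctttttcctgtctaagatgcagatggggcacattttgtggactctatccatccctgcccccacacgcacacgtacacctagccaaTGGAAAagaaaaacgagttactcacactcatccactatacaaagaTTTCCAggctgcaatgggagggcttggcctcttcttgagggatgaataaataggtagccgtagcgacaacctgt
Pdcd1, chr1:94052554-94052803, minus strand: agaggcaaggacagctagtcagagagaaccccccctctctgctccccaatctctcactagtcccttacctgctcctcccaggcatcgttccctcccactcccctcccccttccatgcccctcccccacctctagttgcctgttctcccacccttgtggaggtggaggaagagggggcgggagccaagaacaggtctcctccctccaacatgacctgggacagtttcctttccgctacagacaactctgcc
The Bcl6 window held 3 STAT matches, whose first bases lay at positions -168, -122 and -88 from the start, and those at -168 and -88 also matched the BCL6 motif. A match to the NFAT core at -164 overlapped the first of these. A second annotated Bcl6 start, further upstream, had 1 STAT match in its window, at -118. The Il21 window held 2 NFAT cores, at -119 and -74, and the Pdcd1 window held 0 matches to the 5 motifs. Over the 32536 promoter windows of the same length, 7.04% held a STAT match, 4.06% a BCL6 match, 18.6% an NFAT core, 6.73% an AP-1 match and 17.3% an E protein match. A match describes the letters of the window and does not show binding.

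The deposited values are log2 signals, on which a difference of 1 is a 2-fold change. Array medians ran from 4.61 to 4.65 in the sorted fractions and from 4.79 to 4.81 in the CD4+ arrays. The number of arrays limits the precision. All 7 main probe sets passed the filter on dim genes, which asked for 2 arrays above the 50th percentile of their array. Pdcd1, Bcl6, Il21, Icos and Sh2d1a lay above the array median in all 4 groups. Cxcr5 was below it on the 3 CD49b+ arrays, and Sostdc1 passed the filter on 3 arrays, both naive arrays and 1 of the injected CD4+ arrays. The 6 T cell markers measured were above the array median in every group, with a summed linear signal of 10765 to 13682.

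**Figure D1:**
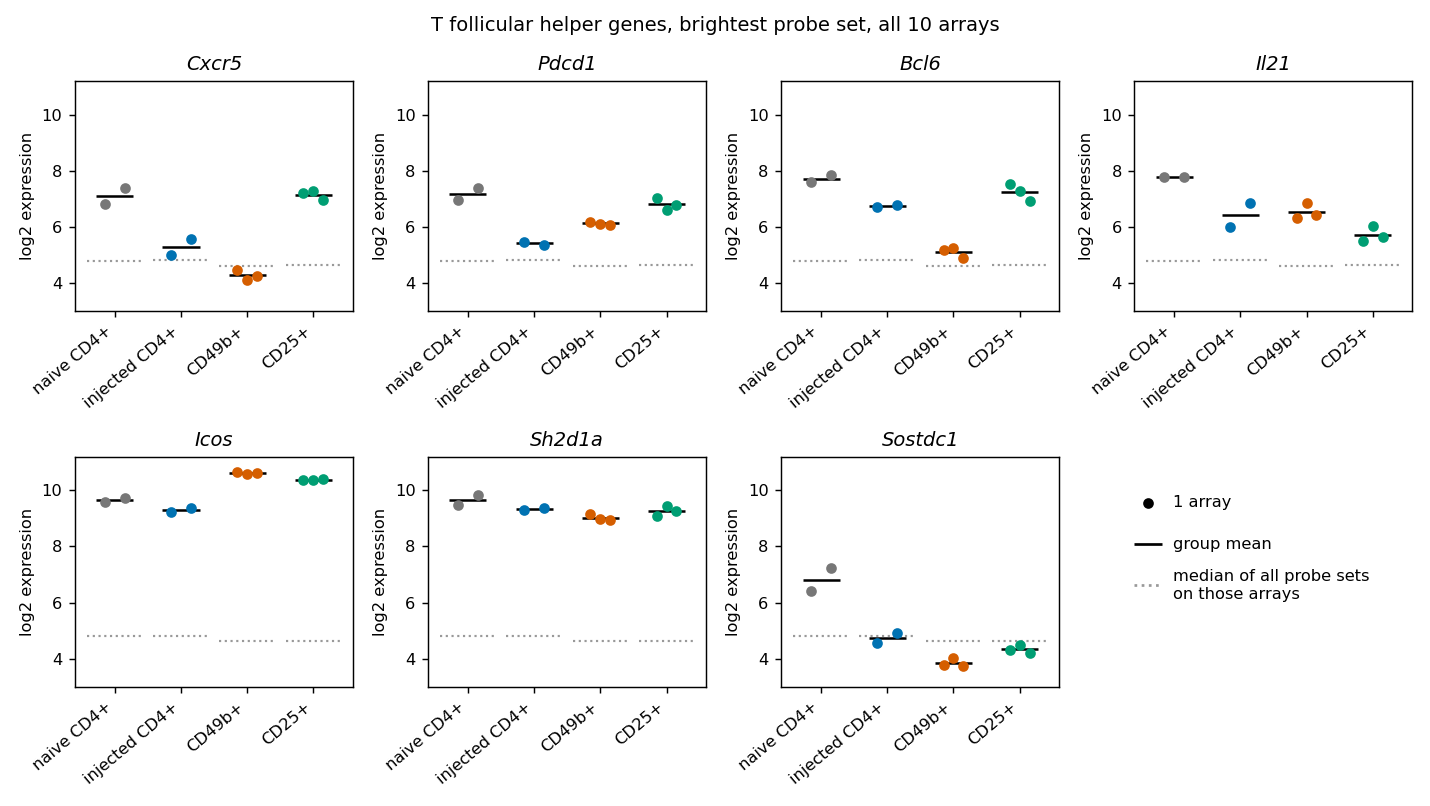
Log2 signal of the main probe set of each of the 7 genes (vertical axis) on each of the 10 arrays, by group (horizontal axis), with points for arrays, bars for group means and dotted lines for the median of all probe sets. Icos is highest on the CD49b+ arrays, at 10.58 to 10.67, whereas Cxcr5 is lowest there, at 4.11 to 4.47.

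Bcl6, the master repressor of the programme, was lowest in CD49b+ cells. Its main probe set read 7.59 and 7.84 in naive CD4+ cells, 6.72 and 6.80 in injected CD4+ cells, 5.18, 5.26 and 4.88 in CD49b+ cells, and 7.54, 7.29 and 6.92 in CD25+ cells. The CD49b+ arrays lay below every other array, and the injected CD4+ arrays lay below both the naive and the CD25+ arrays. CD49b+ cells had 4.41-fold less Bcl6 signal than CD25+ cells, a log2 difference of -2.14 ± 0.16 (SE, adjusted p = 9.6e-06). Against injected CD4+ cells the log2 difference was -1.65 ± 0.18 (3.14-fold, adjusted p = 5.64e-05), and against naive CD4+ cells it was -2.61 ± 0.18 (6.10-fold, adjusted p = 3.79e-06). Between injected and naive CD4+ cells Bcl6 fell by 0.96 ± 0.19 on the log2 scale (adjusted p = 0.0473), a call that was lost whichever of the 4 arrays was left out (adjusted p = 0.110 to 0.507). CD25+ cells did not pass the test against injected CD4+ cells (0.49 ± 0.18, adjusted p = 0.0522) or against naive CD4+ cells (-0.47 ± 0.18, adjusted p = 0.0671), although the arrays did not overlap in either. Without CD25+ replicate 3 the former passed (0.65, adjusted p = 0.00936).

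A second Bcl6 probe set was dimmer and moved less. It read 5.09 and 5.13 in naive, 5.18 and 5.11 in injected CD4+, 4.45, 4.48 and 4.35 in CD49b+, and 5.07, 4.89 and 4.81 in CD25+ cells. It too was lower in CD49b+ cells, by -0.72 against injected CD4+ cells (adjusted p = 0.000365, adjusted over all probe sets) and by -0.49 against CD25+ cells (adjusted p = 0.00314). Its log2 difference between injected and naive CD4+ cells was 0.04 (adjusted p = 0.974). Its difference between CD25+ and injected CD4+ cells, -0.22 (adjusted p = 0.0914), had the opposite sign to that of the main probe set.

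Cxcr5, the follicle-homing receptor, had the widest difference between the sorted fractions among the 7 genes. The arrays read 6.81 and 7.37 in naive CD4+ cells, 4.98 and 5.55 in injected CD4+ cells, 4.47, 4.11 and 4.23 in CD49b+ cells, and 7.22, 7.27 and 6.96 in CD25+ cells. CD25+ and naive arrays overlapped, both stood above the injected CD4+ arrays, and the CD49b+ arrays were lowest. The CD49b+ level was 7.36-fold below that of CD25+ cells (-2.88 ± 0.18, adjusted p = 4.07e-06), and because the CD49b+ arrays lay below the array median this fold may understate the change. Cxcr5 fell with injection in CD4+ cells by 1.82 ± 0.23 on the log2 scale (3.54-fold, adjusted p = 0.00587), which no longer passed without naive replicate 2 (adjusted p = 0.0815). CD25+ cells were 3.68-fold above injected CD4+ cells (1.88 ± 0.21, adjusted p = 0.000109), and CD49b+ cells were below them by -1.00 ± 0.21 (adjusted p = 0.00283). Between CD25+ and naive CD4+ cells the difference was 0.06 (95% interval -0.40 to 0.52, adjusted p = 0.852), and its sign turned without naive replicate 1 (-0.22).

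The summed signal of MHC class II presentation genes, which are typical of B cells and dendritic cells, was like Cxcr5 high on the naive and CD25+ arrays, lower on the injected CD4+ arrays and lowest on the CD49b+ arrays. The list is named for these genes but also holds Ly86, which is not one of them. The linear signal of its 6 genes summed to 3549 to 3961 in naive CD4+ cells, 1133 to 1416 in injected CD4+ cells, 319 to 478 in CD49b+ cells and 1840 to 3202 in CD25+ cells, with 5 of the 6 above the array median in all groups. H2-Aa, the brightest of them, and Cd74 were higher in CD25+ than in injected CD4+ cells, whereas Ly86 and Ciita were lower there. The 11 measured B cell markers summed to 390 to 417 in naive CD4+, 284 to 310 in injected CD4+, 251 to 257 in CD49b+ and 302 to 338 in CD25+ cells, and 7 of them, Ms4a1, Ighm, Pax5, Fcer2a, Cr2, Ebf1 and Bank1, were below the array median in every group. Cd22 was above it in every group, with means of 7.66 in naive, 6.64 in injected CD4+, 5.99 in CD49b+ and 6.59 in CD25+ cells. Cd79b was higher in CD25+ (1.53) and in CD49b+ (0.96) than in injected CD4+ cells. Its means in naive (4.67) and injected CD4+ cells (4.42) were under the array median, and it passed the filter through the sorted fractions. These Cd79b differences are therefore given as a description. The 12 measured dendritic and myeloid markers summed to 1210 to 1627 in naive CD4+ cells and to between 508 and 716 in the other groups, with Itgam, Lyz2 and Xcr1 below the array median in every group. B cells also express Cxcr5 and Bcl6, and the part of such cells in the levels of the 7 genes was not tested.

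**Figure D2:**
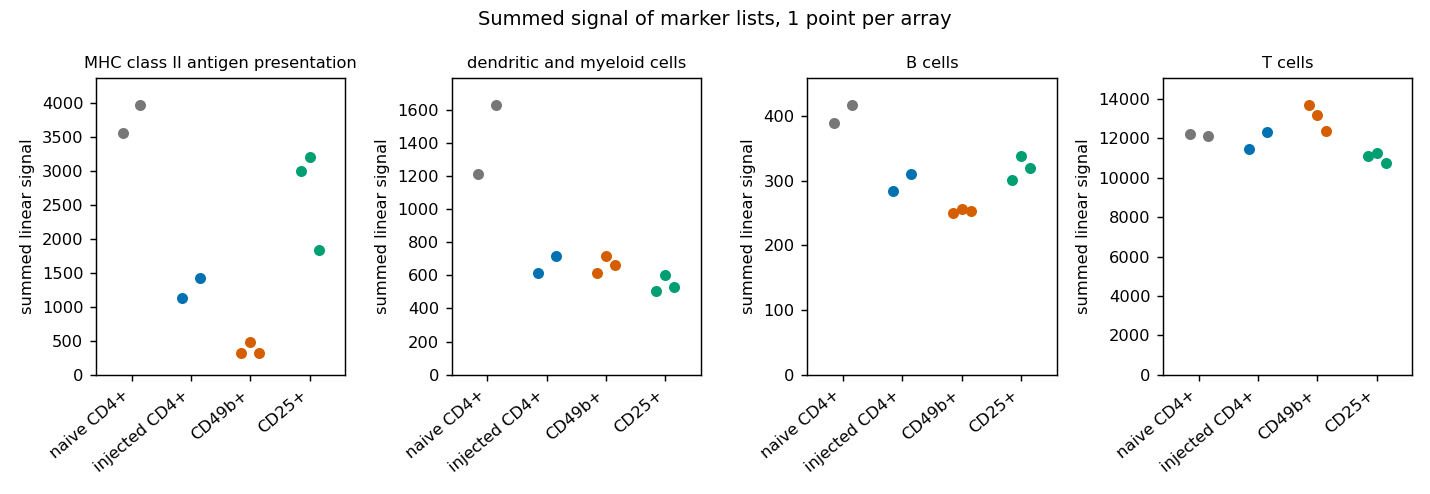
Summed linear signal of 4 cell type marker lists (vertical axes, from 0) by group (horizontal axis), with 1 point per array. The MHC class II sums separate the groups, from 319 to 478 in CD49b+ cells to 3549 to 3961 in naive CD4+ cells, while the T cell sums stay between 10765 and 13682.

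Pdcd1, the gene of the inhibitory receptor PD-1, was lowest in injected CD4+ cells. It read 6.96 and 7.38 in naive CD4+ cells, 5.45 and 5.36 in injected CD4+ cells, 6.18, 6.11 and 6.08 in CD49b+ cells, and 7.04, 6.61 and 6.79 in CD25+ cells. The injected CD4+ arrays were below all others and the CD49b+ arrays stood between them and the rest. With injection Pdcd1 fell by 1.77 ± 0.16 on the log2 scale (3.40-fold, adjusted p = 0.00228), and it passed with each array left out in turn. CD25+ cells were 2.65-fold above injected CD4+ cells (1.41 ± 0.14, adjusted p = 6.77e-05) and CD49b+ cells were above them by 0.72 ± 0.14 (adjusted p = 0.00232). With all 4 CD4+ arrays as the comparator, the latter turned to -0.16 (adjusted p = 0.26). CD49b+ cells were below CD25+ cells by -0.69 ± 0.13 (adjusted p = 0.00287) and below naive CD4+ cells by -1.05 ± 0.14 (adjusted p = 0.000299). CD25+ and naive arrays overlapped (-0.36, adjusted p = 0.0804).

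Icos, a costimulatory receptor of the CD28 family, was by its main probe set higher in both sorted fractions than in either CD4+ group. It read 9.59 and 9.74 in naive CD4+ cells, 9.24 and 9.37 in injected CD4+ cells, 10.67, 10.58 and 10.64 in CD49b+ cells, and 10.36, 10.36 and 10.40 in CD25+ cells. No CD4+ array reached a sorted array, and the CD49b+ arrays were above the CD25+ arrays. Against injected CD4+ cells the level was 2.50-fold higher in CD49b+ cells (1.32 ± 0.08, adjusted p = 1.68e-06) and 2.09-fold higher in CD25+ cells (1.07 ± 0.08, adjusted p = 1.1e-05). CD49b+ cells exceeded CD25+ cells by 0.25 ± 0.07 (adjusted p = 0.0237), which did not pass without CD49b+ replicate 1 or 3 or CD25+ replicate 1 or 2 (adjusted p = 0.0558 to 0.0692). Between injected and naive CD4+ cells the Icos difference was -0.36 ± 0.09, which did not pass (adjusted p = 0.0998). Of the other 2 Icos probe sets, 1 was also higher in CD49b+ (1.02, adjusted p = 7.66e-05) and in CD25+ cells (0.53, adjusted p = 0.00332) than in injected CD4+ cells. The other spread from 9.01 to 9.90 over the CD49b+ arrays and passed in neither (0.61, adjusted p = 0.122, and 0.45, adjusted p = 0.276). Between CD25+ and naive CD4+ cells the main probe set passed (0.71, adjusted p = 0.000166), and the other 2 did not and had overlapping arrays (0.11, adjusted p = 0.423, and 0.31, adjusted p = 0.473).

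Sh2d1a, the gene of the SAP adaptor, had the narrowest range of group means of the 7, from 9.02 to 9.66. It read 9.49 and 9.83 in naive CD4+ cells, 9.29 and 9.38 in injected CD4+ cells, 9.17, 8.96 and 8.94 in CD49b+ cells, and 9.08, 9.43 and 9.25 in CD25+ cells. Among the 6 comparisons only those of the sorted fractions with naive cells passed: CD49b+ cells were lower by -0.64 ± 0.13 (adjusted p = 0.00356) and CD25+ cells by -0.41 ± 0.13 (adjusted p = 0.0398). The latter was lost in 3 of 10 alternative settings, among them with each array centred on its own median (adjusted p = 0.149). With 1 array left out it ran from -0.58 to -0.24, and the call was lost in 3 of the 5 such fits. In the order of its levels no neighbouring groups passed the test, and between CD25+ and injected CD4+ cells the difference was -0.08 (95% interval -0.38 to 0.21).

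Il21, the helper cytokine, was highest in naive CD4+ cells. It read 7.76 on both naive arrays, 5.98 and 6.84 in injected CD4+ cells, 6.32, 6.85 and 6.41 in CD49b+ cells, and 5.48, 6.02 and 5.64 in CD25+ cells. Both naive arrays exceeded all others, the injected CD4+ arrays spread over the range of both sorted fractions, and the CD25+ arrays were below the CD49b+ arrays. CD25+ cells were 4.14-fold below naive CD4+ cells (-2.05 ± 0.25, adjusted p = 0.000262) and CD49b+ cells 2.35-fold below them (-1.24 ± 0.25, adjusted p = 0.00303). With injection Il21 fell by 1.35 ± 0.27 on the log2 scale (2.56-fold, adjusted p = 0.048), a call that did not pass without either naive array or without injected replicate 1 (adjusted p = 0.19 to 0.403). CD49b+ cells were above CD25+ cells by 0.81 ± 0.22 (adjusted p = 0.0214), which did not pass without CD49b+ replicate 2 or CD25+ replicate 1 or 3 (adjusted p = 0.0546 to 0.084). Between CD49b+ and injected CD4+ cells the difference was 0.12 (95% interval -0.44 to 0.68), and it turned to -0.31 without injected replicate 1. A second Il21 probe set stayed between 3.88 and 4.72 on all arrays and did not pass the filter on dim genes, so the Il21 values rest on 1 probe set.

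Sostdc1, the secreted BMP and WNT antagonist, had a group mean above the array median in naive CD4+ cells only. It read 6.39 and 7.24 in naive CD4+ cells, 4.57 and 4.92 in injected CD4+ cells, 3.75, 4.01 and 3.75 in CD49b+ cells, and 4.30, 4.50 and 4.21 in CD25+ cells. The naive arrays were above every other array, and the means of the other 3 groups were below the array median. Sostdc1 had passed the filter through the group in which it was high, so its differences from naive cells are given as a description. Its log2 difference from naive CD4+ cells was -2.07 ± 0.24 in injected CD4+ cells, -2.98 ± 0.22 in CD49b+ cells and -2.48 ± 0.22 in CD25+ cells, and the lower levels being under the array median, these values may understate the change. CD49b+ cells were below injected CD4+ cells (-0.91 ± 0.22, adjusted p = 0.00665), with both means under the array median, a call lost without injected replicate 2 (adjusted p = 0.0615). The second Sostdc1 probe set was above the array median on the naive arrays only, so its differences from naive cells are likewise a description. It was lower by -1.46 in CD49b+ and by -1.41 in CD25+ than in naive CD4+ cells. Its fall with injection, -0.78, did not pass (adjusted p = 0.0673). Against injected CD4+ cells it was lower in CD49b+ (-0.68, limma adjusted p = 0.0031) and in CD25+ cells (-0.63, adjusted p = 0.00685). Each of these group means was under the array median.

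**Figure D3:**
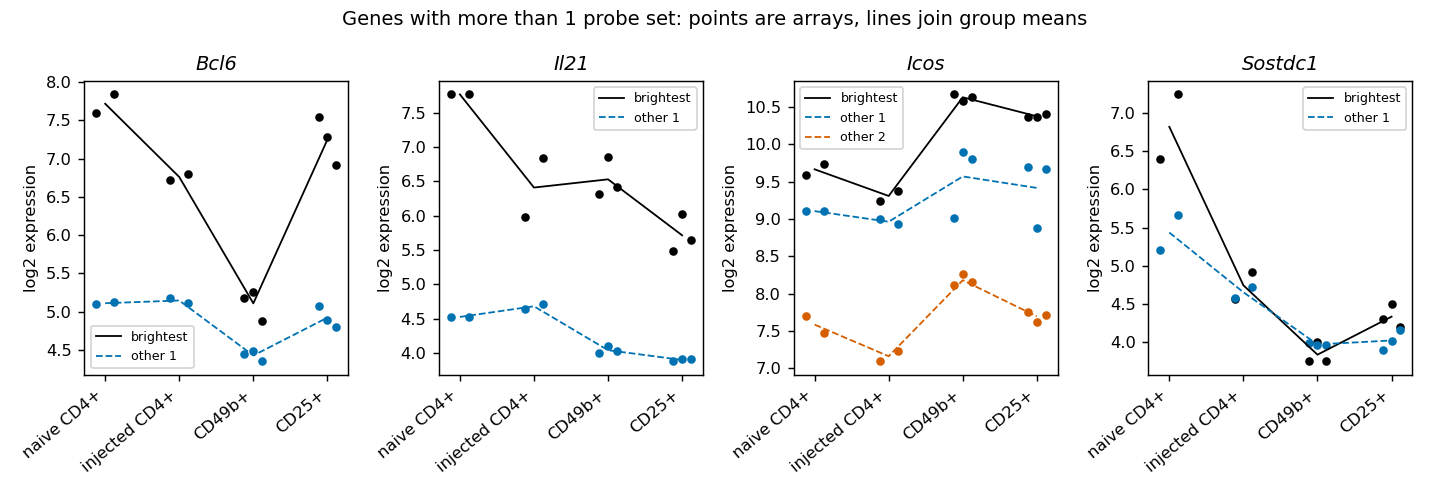
Log2 signal on each array (vertical axis) for every probe set of the 4 genes with more than 1, by group (horizontal axis), with lines joining group means. The main Bcl6 probe set lies between 4.88 and 7.84 whereas the other lies between 4.35 and 5.18.

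Replicates of the CD4+ groups differed in the same direction over most of the 7 genes. Naive replicate 2 was the higher of its pair for 7 of the 7 genes, and injected replicate 2 for 6 of 7, Pdcd1 being the exception. Naive replicate 2 also had the higher MHC class II sum of its pair (3961 against 3549). CD25+ replicate 3, with the lowest such sum of its group (1840), had the lowest Cxcr5 (6.96) and Bcl6 (6.92) of the CD25+ arrays. CD25+ replicate 2, with the highest (3202), had less Bcl6 (7.29) than replicate 1 (7.54). In CD49b+ cells replicate 2 had the highest sum (478) and the lowest Cxcr5 (4.11). The relation between these sums and the 7 genes was not tested.

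After dendritic cell injection, CD4+ cells carried less Cxcr5, Pdcd1, Bcl6, Il21 and Sostdc1 than CD4+ cells of naive mice, by the main probe sets. The second Bcl6 probe set did not fall (0.04). With every probe set tested, the main probe sets of Bcl6 and Il21 did not pass (limma, adjusted p = 0.0971 and 0.101). In this comparison 5 of the 7 genes were called lower and 0 higher, where 1.36% of the 11037 tested genes were called lower and 0.0272% higher. Arrays did not overlap for 7 of the 7, all lower, where 48.5% of tested genes did not overlap in either direction. The median log2 difference was -1.35 over the 7 genes and -0.03 over all genes. Sostdc1 passed the filter through the naive arrays, and without it, a count added after the values were seen, 4 of 6 genes were called lower. The share of all genes called lower rests on few arrays: leaving out naive replicate 2 turned the 150 genes into 15, leaving out injected replicate 1 into 30, and leaving out either of the others into 93 or 114, and the count of the 7 genes ran from 2 to 4. Fitted on the 4 CD4+ arrays alone, 0 of the 7 genes were called, and 0 genes of all, with limma adjusted p-values of 0.0565 to 0.138 for the 5. At an unadjusted p under 0.05 that fit gave 6 of the 7 genes lower and 0 higher, and 1229 genes lower and 409 higher in all. Genes of the MHC class II list moved the same way, 4 of 6 being lower, among them H2-Aa (-1.70) and Cd74 (-1.39). So did 5 of 9 dendritic and myeloid markers, and the part of both lists in the falls was not tested.

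Of a wider list of follicular helper genes, 3 of the 23 tested fell with injection and 0 rose: Gpm6b, a membrane glycoprotein (-2.03 ± 0.13), Tiam1, an activator of the GTPase RAC1 (-1.10 ± 0.17), and Maf, the transcription factor that drives Il21 and Il4 (-0.82 ± 0.11). Over all tested genes 1.36% were called lower and 0.0272% higher. Genes that oppose the programme or that BCL6 represses gave 0 calls of 15, with a median of -0.05. SLAM receptor and SAP signalling genes gave 0 of 8, and the ligands and partners of the 7 genes 0 of 13. In each of these 3 lists 3 genes were lower and 0 higher at an unadjusted p under 0.05 (limma). Of 9 genes of follicular regulatory T cells, 3 fell: Fgl2, a secreted suppressor (-1.56), Nrp1, a semaphorin receptor (-1.35), and Ikzf2, the Helios transcription factor (-1.22). No follicular regulatory cells were sorted, and the list does not tell them from other regulatory T cells. Foxp3 read 4.92 and 4.64 on average in naive and injected CD4+ cells and was not called.

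Within injected mice, CD49b+ cells combined a high Icos level with low Bcl6 and Cxcr5. Against injected CD4+ cells, Icos and Pdcd1 were higher and Cxcr5, Bcl6 and Sostdc1 lower. Those are 2 of 7 genes called higher and 3 lower, where 29.9% of tested genes were called higher and 23.5% lower, so calls in both directions were common. Arrays did not overlap for 6 of 7, against 70.3% of all genes, and the median was -0.31 against 0.03. Sostdc1 had both means under the array median. Without it, a count added after the values were seen, 2 of 6 genes were higher and 2 lower, with a median of -0.10. With each array centred on its own median, which raised the median difference of all genes by 0.19, 78.3% of the calls over all genes were higher, against 56% as deposited. The directions of Icos, Pdcd1, Cxcr5, Bcl6 and Sostdc1 did not turn under quantile normalization or median centring.

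In the wider programme 9 of 23 genes were higher and 9 lower in CD49b+ than in injected CD4+ cells. Over all tested genes 29.9% were called higher and 23.5% lower. Maf (3.10 ± 0.10) and Il4, the cytokine that drives class switching (2.63 ± 0.30), were higher, while Lef1, a transcription factor that promotes Bcl6 expression (-2.57 ± 0.29), and Il6st, the signalling chain of the interleukin-6 receptor (-2.51 ± 0.17), were lower. Il4 had a mean below the array median in the other 3 groups and passed the filter through the CD49b+ arrays (6.99, 7.19 and 6.47), so its differences from them are given as a description. It is counted among the 9 higher genes. Of the opposing genes 10 of 15 were higher and 3 lower, with a median of 1.39. Tbx21, the T helper 1 regulator (3.81 ± 0.41), Gata3, the T helper 2 regulator (2.68 ± 0.14), and the interleukin-2 receptor chains Il2rb (2.56 ± 0.15) and Il2ra (2.12 ± 0.14) differed most. Il2ra averaged 4.17 in both CD4+ groups, under the array median, and passed the filter through the sorted fractions. It is counted among the 10, and its differences from CD4+ cells are given as a description. Prdm1, which BCL6 represses, was higher by 1.82 ± 0.08 (adjusted p = 3.72e-07). Of the 9 follicular regulatory genes 6 were higher and 0 lower, with a median of 1.81, among them Fgl2 (a level of 7.53 against 4.53) and, by their log2 differences, Nrp1 (2.46 ± 0.14), Ikzf2 (1.83 ± 0.16) and Foxp3 (1.81 ± 0.12). Among SLAM and SAP genes Slamf1 (0.82) and Cd84 (0.62) were higher, and Sh2d1a itself was lower by -0.31 without passing (adjusted p = 0.0724). CD49b is also a marker of natural killer cells. The 6 natural killer cell markers summed to 389 to 556 in CD49b+ cells and 178 to 204 in injected CD4+ cells, with Klrb1c and Klra8 below the array median in every group. Nkg7, a granule membrane protein, was higher by 2.78 ± 0.39, and Ncr1 (0.65) and Klrk1 (0.53) were higher too, whereas Prf1, the gene of perforin, was lower (-1.10 ± 0.11). Ncr1 averaged 4.45 in naive and 4.47 in injected CD4+ cells, under the array median, and passed the filter through the sorted fractions. Its difference is therefore given as a description, and it was also higher in CD25+ than in injected CD4+ cells (0.73). The part of natural killer cells in these differences was not tested.

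CD25+ cells of injected mice carried more Cxcr5, Pdcd1 and Icos than injected CD4+ cells. That is 3 of the 7 genes called higher and 0 lower, where 20.8% of tested genes were called higher and 17.8% lower. At an unadjusted p under 0.05 (limma) 4 were higher and 1, Il21, lower. Arrays did not overlap for 5 of the 7, against 58.9% of all genes, and the median was 0.49 against 0.02. Without Sostdc1, which was under the array median in both groups, the calls were the same and the median was 0.78. Median centring raised the median difference of all genes by 0.16 and the share of higher calls from 53.9% to 78.6%, and gave Sh2d1a a positive sign (0.074). The comparison uses the same injected CD4+ arrays as that of CD49b+ cells.

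In the wider programme 8 of 23 genes were higher in CD25+ than in injected CD4+ cells and 5 lower. Over all tested genes 20.8% were called higher and 17.8% lower. Tiam1 (3.32 ± 0.15), Tnfrsf4, the costimulatory receptor OX40 (2.98 ± 0.19), and Maf (2.75 ± 0.10) were higher, and Lef1 was lower (-2.16 ± 0.29). Of the opposing genes 8 of 15 were higher and 2 lower, led by Il2ra (4.66 ± 0.14), which encodes the protein the cells were sorted on, Il2rb (3.08 ± 0.15), the chemokine receptor Ccr6 (2.91 ± 0.17) and Rora (2.06 ± 0.16). Il2ra is counted among the 8. It averaged 4.17 in injected CD4+ cells, under the array median, and passed the filter through the sorted fractions. Its difference is therefore given as a description. The 9 follicular regulatory genes, of which 6 were also higher in CD49b+ cells, were all 9 higher, with a median of 2.14: Foxp3 (3.61 ± 0.12), Ikzf2 (3.39 ± 0.16), Nrp1 (2.77 ± 0.14) and the inhibitory receptor Ctla4 (2.25 ± 0.35) differed most. As a named list, these genes do not tell follicular regulatory cells from other regulatory T cells. Prdm1 is in that list and among the opposing genes, and it was higher by 1.85 ± 0.08. Of the 6 genes of the MHC class II list 2 were higher, H2-Aa (1.41) and Cd74 (0.93), and 2 lower, Ly86 (-1.37) and Ciita (-0.37). Their part in the Cxcr5 level was not tested.

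**Figure D4:**
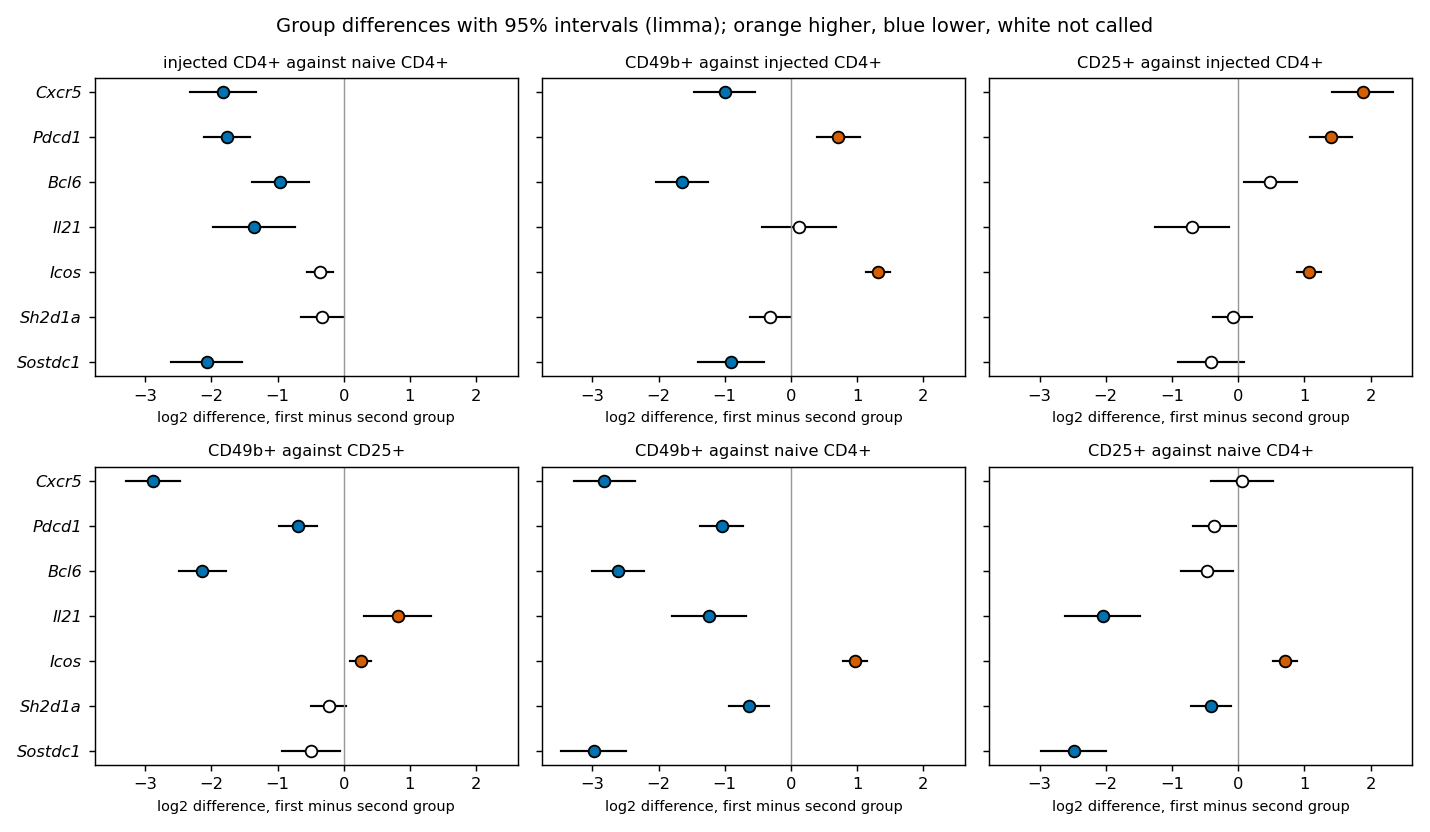
Log2 difference of each of the 7 genes (horizontal axis) with its 95% interval in the 6 comparisons, coloured where the limma test was passed and white where it was not. The largest differences between the sorted fractions are those of Cxcr5 (-2.88) and Bcl6 (-2.14).

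Compared directly, CD49b+ cells had less Cxcr5, Bcl6 and Pdcd1 than CD25+ cells and more Il21 and Icos. These are 3 of 7 genes called lower and 2 higher, where 12.4% of tested genes were called lower and 17.5% higher. Arrays did not overlap for 6 of 7, against 41.6% of all genes, and the median was -0.50 against 0.03. Without Sostdc1 the calls were the same and the median was -0.46. Sostdc1 (-0.50 ± 0.20, adjusted p = 0.0868) passed when the replicate number was added as a block (-0.50, adjusted p = 0.0114), which brought the count to 6. With that block on the 6 sorted arrays alone the same count was 5 of 6 genes tested, Sostdc1 being too dim to enter. Both Sostdc1 means were under the array median here. Its second probe set differed by -0.05 with overlapping arrays (limma, adjusted p = 0.802).

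The wider programme leaned toward CD25+ cells, with 11 of 23 genes lower and 4 higher in CD49b+ cells and a median of -0.41. Over all tested genes 12.4% were called lower and 17.5% higher, with a median of 0.03. Il6st (-2.12 ± 0.15), Cd200, an inhibitory surface glycoprotein (-1.55 ± 0.10), and Tnfrsf4 (-1.48 ± 0.17) were lower, and Il4 was higher (2.41 ± 0.27). Of the opposing genes 5 of 15 were higher and 5 lower. Prdm1, which BCL6 represses, was not called between the 2 fractions (-0.03 ± 0.08, limma adjusted p = 0.841), where Bcl6 was lower in CD49b+ cells. Tbx21 (1.92 ± 0.37) and Gata3 (1.43 ± 0.13) were higher, and Ccr6 was lower (-1.43 ± 0.15). Il2ra was lower too (-2.54 ± 0.13), and it encodes the protein that the CD25+ cells were sorted on. Of the follicular regulatory genes 6 of 9 were lower, led by Foxp3 (-1.80 ± 0.11), and Fgl2 was higher (1.55 ± 0.15). Il21r, the receptor for interleukin-21, was lower (-0.63 ± 0.12) in CD49b+ cells, where Il21 itself was higher. Cd84 (0.54) and Slamf6 (0.48), both SLAM receptors that signal through SAP, were higher.

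**Figure D5:**
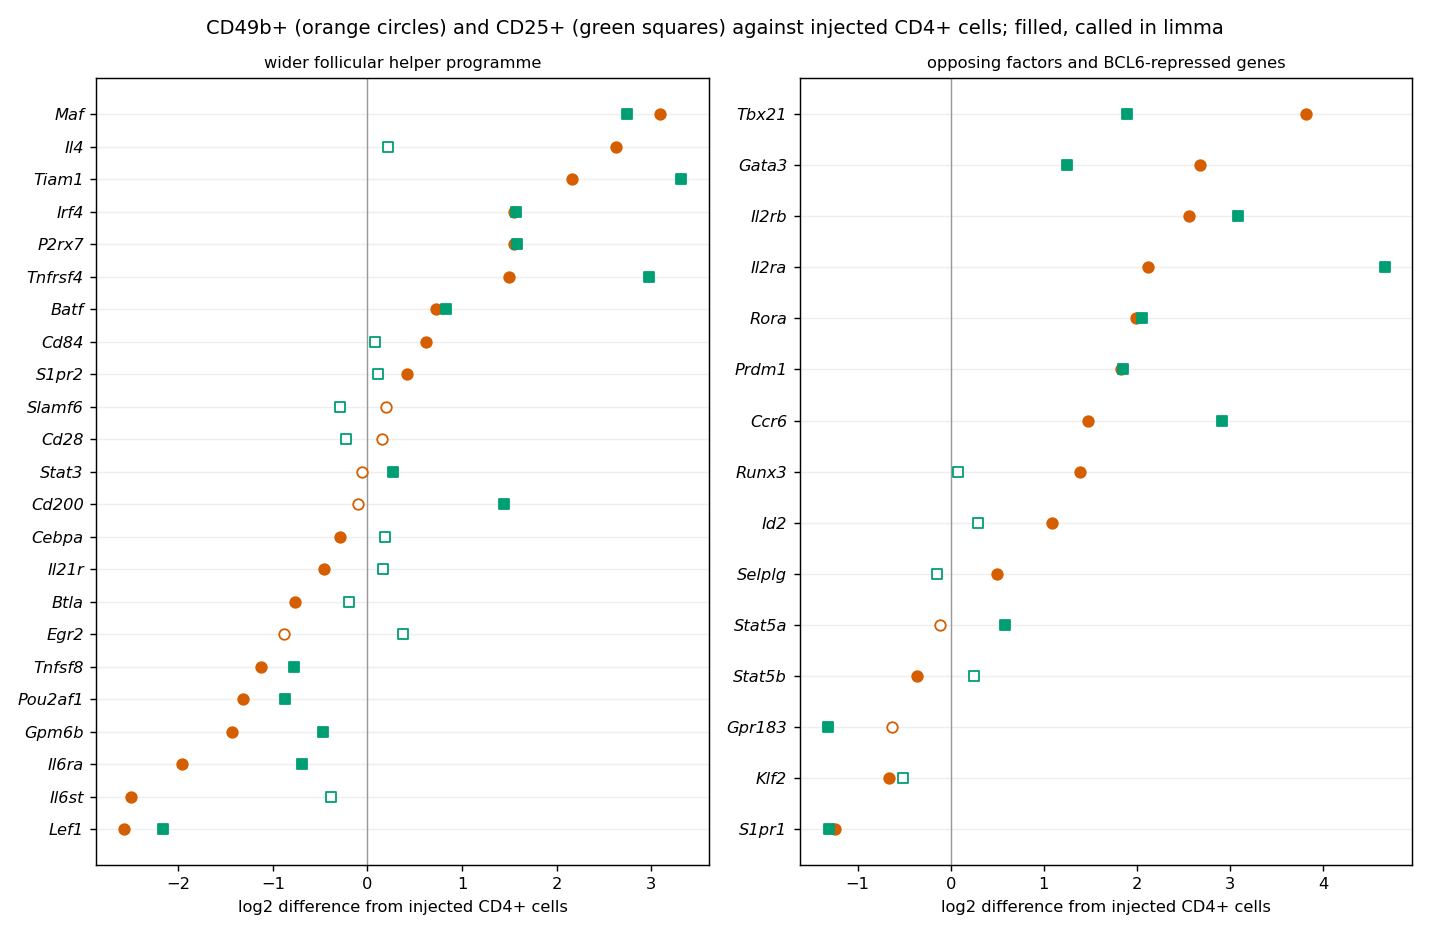
Log2 difference from injected CD4+ cells (horizontal axis) of every tested gene of the wider programme and of the opposing list (vertical axes), for CD49b+ (circles) and CD25+ cells (squares), filled where the limma test was passed. Il4 (2.63) and Tbx21 (3.81) lie to the right in CD49b+ cells, and Lef1 lies to the left in both (-2.57 and -2.16).

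Set against naive CD4+ cells, both sorted fractions had less Il21, Sh2d1a and Sostdc1 and more Icos by the main probe sets. In CD25+ cells 2 of the 3 Icos probe sets did not pass, and the Sh2d1a call was lost in several settings. Sostdc1 passed the filter through the naive arrays. In CD49b+ cells 6 of the 7 genes were called lower, Cxcr5 by 7.07-fold among them, and Icos was called higher (0.96 ± 0.08, adjusted p = 1.4e-05), where 22.9% of tested genes were called lower and 24.7% higher. In CD25+ cells 3 were called lower and Icos was called higher (0.71 ± 0.08, adjusted p = 0.000166), where 17.6% of tested genes were called lower and 15.9% higher. Arrays did not overlap for 7 of 7 genes in CD49b+ and 5 of 7 in CD25+ cells, against 70.2% and 60.2% of all genes. Without Sostdc1 the lower calls were 5 of 6 and 2 of 6. The medians were -1.24 and -0.41, against -0.00064 and -0.02 over all genes. Median centring moved the share of higher calls over all genes from 51.9% to 75.5% in CD49b+ cells and from 47.4% to 74.3% in CD25+ cells. These comparisons change both the sort and the injection, and share the naive arrays.

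In this setting Pou2af1, a transcriptional coactivator best known in B cells, was lower in CD49b+ (-2.55 ± 0.26) and in CD25+ cells (-2.10 ± 0.26), as was Gpm6b (-3.46 ± 0.12 and -2.50 ± 0.12). Among ligands of the 7 genes, Pdcd1lg2, a ligand of PD-1, was higher than in naive CD4+ cells in CD49b+ (1.68 ± 0.10) and in CD25+ cells (1.66 ± 0.10), and Pik3cd, the kinase subunit downstream of ICOS, was lower (-0.72 ± 0.12 and -0.44 ± 0.12).

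The genes whose profiles lay nearest to each of the 7 were found by the root mean square difference over the 10 arrays, after each profile was centred on its own mean. For Cxcr5 they were Stfa3 (0.456 log2 units), Cd74 (0.496) and Hebp1 (0.500), with Bcl6 the nearest of the 7 at 0.529. For Bcl6 they were Armcx2 (0.278), Cybb (0.282) and Cyth3 (0.283), and 48 genes lay nearer to it than Cxcr5. Pdcd1 was nearest to Prrt2 (0.276), Fcrl1 (0.328) and Etfbkmt (0.359), and Il21 to Themis2 (0.315), Neat1 (0.324) and Alox5ap (0.353). Cd74 is an MHC class II marker and Cybb a myeloid one in the lists above. Icos lay nearest to Serinc3 (0.0818), Sla (0.0861) and Plekhb2 (0.0982), Sh2d1a to Timm21 (0.0938), Sft2d2 (0.101) and D3Ertd751e (0.101), and Sostdc1 to Gpm6b (0.287), Plbd1 (0.293) and Ctsh (0.293). The 10 arrays share their groups, so likeness of profile here is mostly likeness of group means.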

How the data were processed

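RNA of CD4+ T cell fractions, purified by negative selection with Dynabeads and sorted on a FACSAria, was labelled with the 3' IVT Express reagents of GeneAtlas for Affymetrix mouse arrays, per the labels' protocols. The deposited values are log2 expression from GCRMA. Per the submitters' processing notes, Expression Console 1.2.1 of Affymetrix was used. Joint normalization of the 10 arrays is not stated in the labels, and a level difference between groups can come partly from that step.

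Of 45037 probe sets other than the 104 controls, 28898 had 1 gene symbol, 551 several and 15588 none. Each of 17097 genes was represented by its brightest probe set. The 11037 genes above the 50th percentile of at least 2 arrays were tested. Groups were fitted together (limma 3.58.1 in R 4.3.3, lmFit and eBayes, 6 residual degrees of freedom), in 6 comparisons, two-sided, with Benjamini-Hochberg adjustment within each and calls at an adjusted p under 0.05.

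The 7 genes and all lists were chosen with earlier results of these data known. Named genes are the 7, up to 4 called genes a list and comparison with the greatest difference, and the 3 nearest profiles of each. Prdm1 among the opposing genes, Foxp3 in the comparison of CD4+ cells and the dim markers were named outside that rule, after their values were seen. Replicate numbers paired the CD49b+ and CD25+ arrays: correlations of same-numbered deviations were 0.158, 0.366 and 0.641. Alternatives covered the filter, normalization, probe set choice, variance model, replicate block, comparator and left-out arrays.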

Additional observations from a re-analysis of the deposited data

How the results depend on the processing

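The counts of the 7 genes called depended most on the settings in the comparison of injected with naive CD4+ cells. The 5 called there became 3 with no filter on dim genes, with the mean of probe sets or with every probe set tested, and 0 with only the 2 groups compared, and ran from 2 to 4 when 1 array was left out. In CD25+ against injected CD4+ cells, 3 became 5 with no filter, with the mean of probe sets, with the replicate block or with all 4 CD4+ arrays as comparator, and ran from 3 to 4 without 1 array. With a 2-fold threshold 2 were called in CD49b+ against injected CD4+, in CD49b+ against CD25+ and in CD25+ against naive CD4+ cells. Leaving out 1 array gave 4 to 6, 3 to 4 and 3 to 5 in these 3, and 7 in CD49b+ against naive CD4+ cells throughout. Values whose sign turned were Sh2d1a in CD25+ against injected CD4+ cells (0.074 with median centring, -0.17 to 0.00041 without 1 array), Il21 in CD49b+ against injected CD4+ cells (-0.26 with the mean of probe sets, -0.56 with all 4 CD4+ arrays, -0.31 to 0.55 without 1 array), Pdcd1 in the same comparison (-0.16 with all 4 CD4+ arrays) and Cxcr5 in CD25+ against naive CD4+ cells (-0.22 to 0.34 without 1 array). Over 654 values of single genes under the alternatives, 584 kept their direction and side of the threshold, 36 lost the call, 25 gained it and 9 turned sign. The cause of these changes was not tested. In CD4+ cells of naive and injected mice same-numbered arrays deviated in opposite directions (correlation -0.209), and a block with crossed numbers, chosen after seeing the data, called 5. With 2 or 3 arrays a group, and Sostdc1 and Cxcr5 below the array median in some groups, small differences of dim genes could not be measured.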
